A study of Glycine max with 6 samples.

Results

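DREB and ERF proteins are plant transcription factors that share the AP2/ERF DNA-binding domain. Those of the DREB branch bind the dehydration-responsive element in promoters of cold-, drought- and salt-inducible genes, and the CBF/DREB1 type is known in Arabidopsis as the switch of the cold response. Those of the ERF branch bind the GCC box of ethylene- and defence-responsive genes, and members act as activators or as repressors. In leaves these genes are known for quick and often short-lived responses to cold, wounding, osmotic stress and pathogens.

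The family was followed through 10 soybean genes, of 6029 with a name on the array: DREB1-like, DREB1, DREB3, DREB and LOC732579 (synonym DREB2) of the DREB type, and ERF3, ERF5, LOC100795557 (synonym ERF5), ERF6 and AP2-9, which are treated here as the ERF group. AP2-9 was put there for its name alone. All soybean probe sets paired with these genes and no other were taken. That gave 15 probe sets: 4 for ERF3, 2 each for LOC732579 and LOC100795557, and 1 for each of the other 7 genes. Probe sets of a gene are numbered from the highest to the lowest mean over the 6 arrays, as in ERF3 (1) to ERF3 (4).

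The samples are first trifoliolate leaves of soybean (Glycine max, cultivar OAC Bayfield), taken 48 h after the leaf was sprayed at the V1 stage. LCO leaves received 2 mL of water with 1e-07 M lipo-chitooligosaccharide, a rhizobial Nod factor (NodBj-V with a C18:1 chain and a methylfucose, from Bradyrhizobium japonicum 532C), and 0.02% Tween 20. Water leaves were sprayed with an equal 2 mL of water and Tween 20 alone. Each group has 3 arrays. The labels do not say whether a replicate is 1 plant or a pool, so p-values reflect only how far these samples differ, part of which may be technical. In whole leaf, fewer cells of a type and less RNA per cell cannot be told apart.

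Values are log2 RMA values, so that 1 unit is a 2-fold difference, and a level is not compared between probe sets. The background level, 3.31, is the percentile 90 of the mean values of 23394 probe sets for an oomycete and a nematode on the same array. A soybean probe set was tested if its mean over the 6 arrays lay above it, which held for 29286 of 37593, and for 14 of the 15 probe sets here. Changes were tested with limma, and a probe set is called where the p adjusted over all tested probe sets was under 0.05. Medians over the tested probe sets ran from 6.84 to 6.89 per array. Water 1 and water 2 were the closest pair of arrays, their difference having an SD of 0.198 against 0.341 to 0.695 for other pairs. The leaf markers PSAD and CAB3, the 2 found of 14 fixed, read above background on every array in 7 of 10 probe sets, with values of up to 14.4. Those of seed storage were at or under background on every array in 9 of 9, and no nodule or root marker was found in the table. The 3 probe sets of the phloem markers SEOF and SEO-F3 (2 of 5 fixed vascular markers, each above background on every array) had higher values in every LCO leaf but were not called (limma adjusted p from 0.0562 to 0.0958), with list means per array from 5.96 to 6.47 with LCO and from 5.24 to 5.31 with water. Whether a shift in vascular content had a part in any result below was not tested.

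DREB1-like rose with LCO, and ERF3 fell in 2 of its 3 tested probe sets. The other 11 tested probe sets of the family were not called. DREB1-like read below background in every water leaf and far above it in every LCO leaf, while the called falls of ERF3 were of 1.52- and 1.67-fold. The 3 calls of 14 compare with a background of 3.55% of all tested probe sets, made up of 1.67% higher and 1.88% lower. An unadjusted p under 0.05 was found for 7 of the 14, against 25.8% of all tested. By group, 1 of 6 DREB and 2 of 8 ERF probe sets were called. The LCO and water arrays did not overlap in 10 of the 14, 3 higher and 7 lower with LCO, where this held for 31.5% of all tested probe sets (15.3% higher and 16.3% lower). Those 10 were all 8 of the ERF group and 2 of 6 of the DREB type; the difference between the groups was not tested. The median log2 difference, LCO minus water, was -0.20 over the 14 probe sets and -0.0067 over all tested. With sign ignored, the median was 0.34 for the 14 and 0.20 for all. Members were chosen with earlier results of these data known, so the shares above only describe these probe sets. Probe sets of a gene are not independent. Both lower calls were of ERF3, and with 1 mean per gene 1 gene was called higher and 0 lower.

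**Figure D1:**
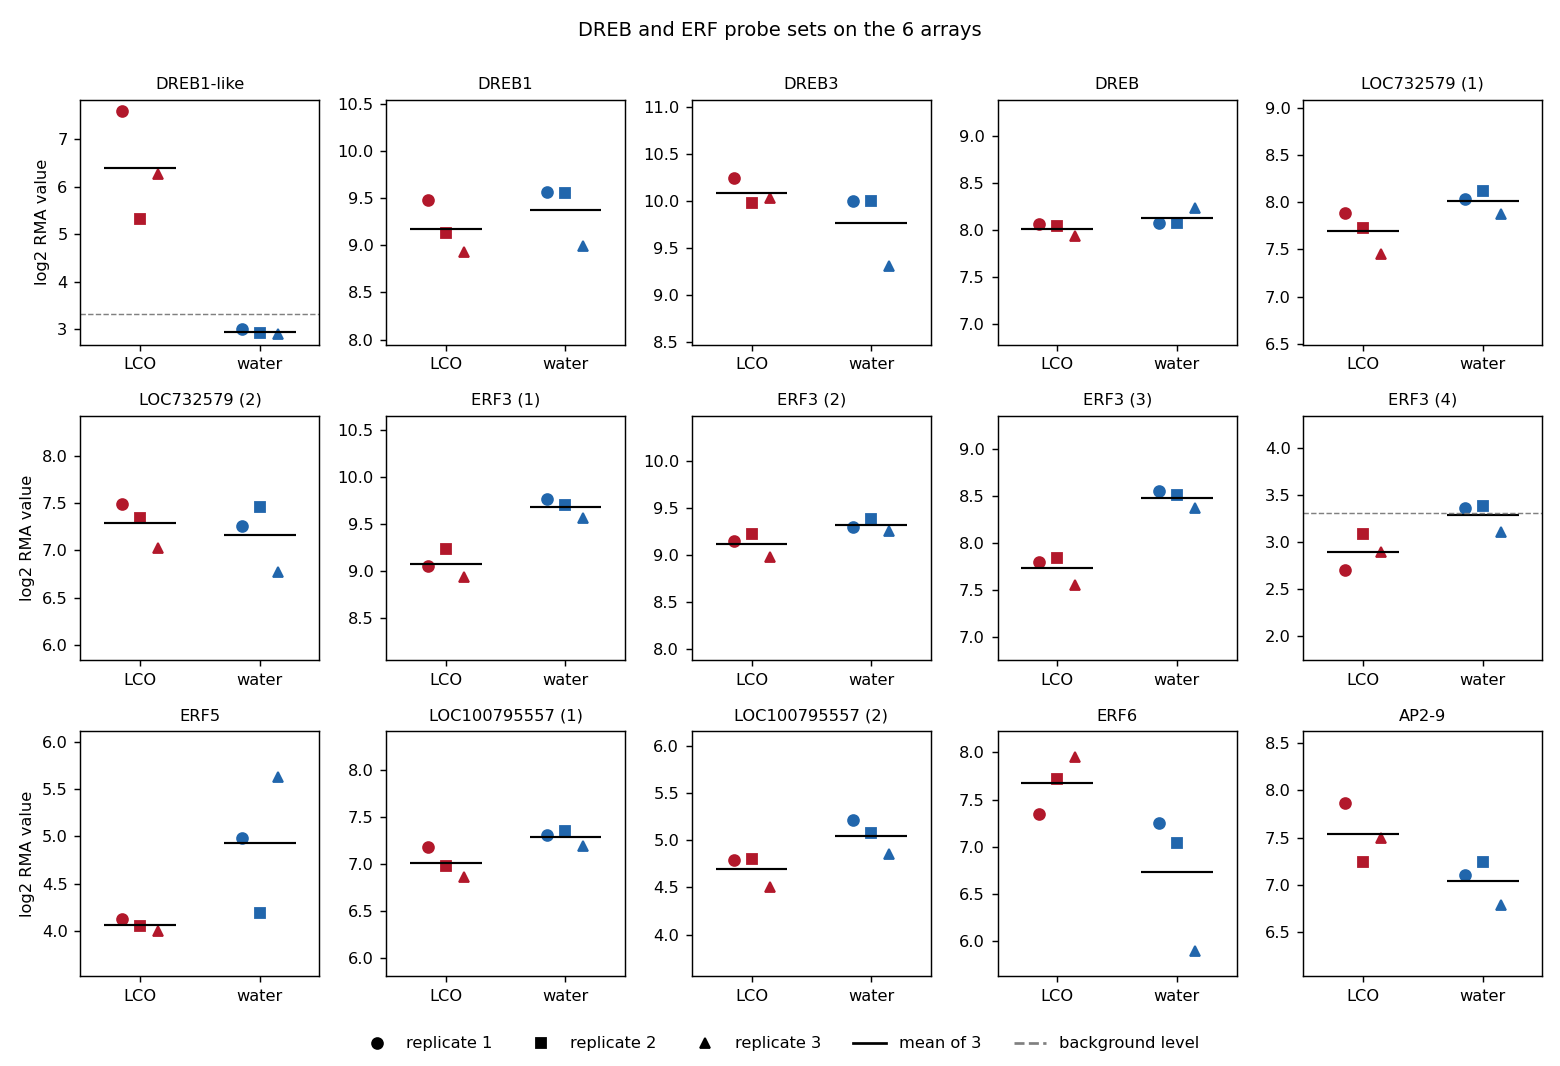
Log2 RMA values (y axis) of the 15 DREB and ERF probe sets on the 3 LCO and 3 water arrays, with symbols for the replicates, a line for each mean, and the background level of 3.31 where it falls in the panel; each panel has its own y range. DREB1-like stands apart by far, ERF3 (1) and ERF3 (3) are lower in every LCO array, and water 3 lies away from the other water arrays in ERF6 and DREB3.

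DREB1-like, with the synonyms CBF and DREB1, is of the cold-response type that drives freezing-tolerance genes in Arabidopsis. Its 1 probe set read 7.59, 5.31 and 6.26 in LCO leaves 1 to 3, against 3.02, 2.93 and 2.91 in water leaves. All 3 water arrays lay under the background level and within 0.10 of each other. The LCO arrays spread over 2.28 log2 units. With LCO it averaged 6.39 ± 1.15, and with water 2.95 ± 0.06 (SD, n = 3 each), a fitted difference of 3.44 (SE 0.52, limma adjusted p = 0.0269). It passed the filter on the mean over all arrays only through its LCO values. With no filter the limma adjusted p was 0.0267. Since water had only a bound, the LCO mean was set against the background level, and lay 8.44-fold above it. That value makes no allowance for the spread of the LCO arrays, so it is not a lower limit. The 95% interval of the fitted difference was 2.18 to 4.70, and the dimmest LCO leaf read 5.31, against a background level of 3.31.

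The call of DREB1-like depends on which arrays enter. It held without LCO 1 (adjusted p = 0.0144), without LCO 2 (adjusted p = 0.0193) and without water 3 (adjusted p = 0.0369). It ended without LCO 3 (adjusted p = 0.0810), without water 1 (adjusted p = 0.115) and without water 2 (adjusted p = 0.120), and with water 1 and water 2 averaged to 1 sample (adjusted p = 0.116). Over these fits with 1 array left out the difference stayed positive, and lay between 2.84 (without LCO 1, the brightest leaf) and 3.98 (without LCO 2, the dimmest LCO leaf).

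The array holds a further probe set whose identifier carries the same cluster number as that of DREB1-like, and which has no gene in the table used. It was looked up for that number and not for its values, and no gene is given to it here. It read 6.43, 3.57 and 4.36 in LCO leaves 1 to 3, and 2.37, 2.13 and 2.07 in water leaves. As for DREB1-like, every LCO array lay above background and every water array below it, so it too passed the filter only through its LCO values. The order of the LCO leaves was also the same. Its LCO mean lay 2.78-fold above the background level, though LCO 2, at 3.57, was near the level of 3.31. The fitted difference was 2.59 (SE 0.68), and the probe set was not called (limma adjusted p = 0.0864).

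**Figure D2:**
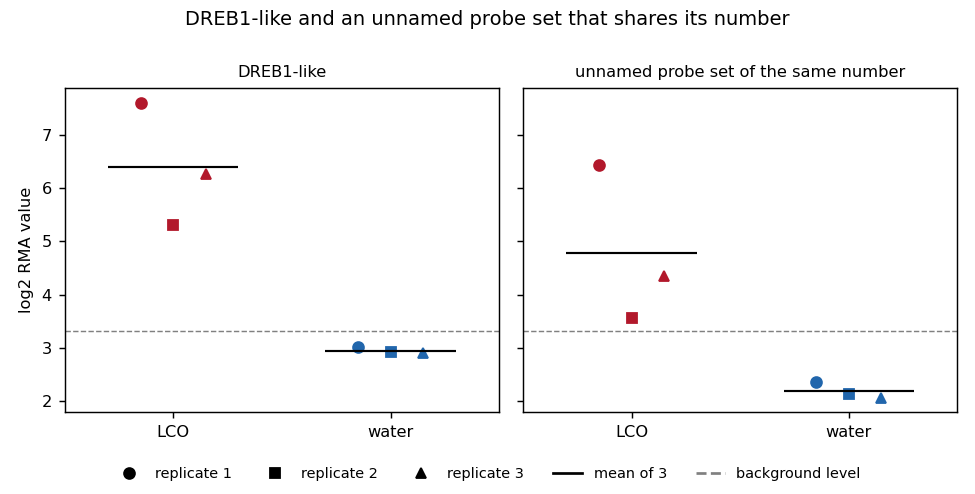
Log2 RMA values of DREB1-like (left) and of the unnamed probe set with the same cluster number (right) on the 3 LCO and 3 water arrays, with group means as lines and the background level of 3.31 dashed. In both panels LCO 1 is the brightest leaf, LCO 2 the dimmest of the LCO leaves, and all 3 water leaves lie under the background level.

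The other DREB genes were well above background in all leaves and none was called. DREB1 (GmDREB1), named for the dehydration-responsive element its class binds, read 9.48, 9.13 and 8.92 with LCO, against 9.57, 9.56 and 8.99 with water. The groups overlapped, and the lowest leaf of each was the third. The difference was -0.20 (95% interval -0.71 to 0.31), and leaving out single arrays gave values from -0.39 (without water 3) to -0.07 (without LCO 3). DREB3 read 10.24, 9.98 and 10.03 with LCO, against 10.00, 10.00 and 9.31 with water. Water 3 lay 0.69 under the mean of the other water leaves, and the difference was 0.31 (95% interval -0.18 to 0.81), or 0.08 without water 3. Probe sets with the cluster number of DREB3 are paired with another gene, LOC100800478, and the largest difference among its tested ones was -0.69 (limma adjusted p = 0.101).

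The probe set of DREB (synonyms GmERF006 and GmERF007) was the steadiest of the family. It read 8.06, 8.04 and 7.93 with LCO, against 8.07, 8.07 and 8.23 with water. The groups did not overlap, but the gap between them was 0.007, and the difference was -0.11 (95% interval -0.34 to 0.12), or -0.07 without LCO 3 and -0.06 without water 3. LOC732579, the gene with the synonym DREB2, gave estimates of opposite sign in its 2 probe sets. LOC732579 (1) read 7.89, 7.73 and 7.46 with LCO, against 8.04, 8.12 and 7.88 with water, a difference of -0.32 (95% interval -0.66 to 0.02), or -0.20 without LCO 3. LOC732579 (2) read 7.49, 7.35 and 7.03 with LCO, against 7.26, 7.46 and 6.77 with water, a difference of 0.13 (95% interval -0.38 to 0.63), and leaving out single arrays moved it between -0.07 (without water 3) and 0.27 (without water 2). In both the groups overlapped. The changes of the pair differed by -0.45, with an exact permutation p = 0.1 (two-sided), the smallest that 3 against 3 arrays can give. Among 4 such comparisons of probe sets within a gene it had an adjusted p of 0.133.

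ERF3 (GmERF3), an ERF of the class that binds the GCC box, had lower values with LCO in its 3 tested probe sets, with 2 of them called. ERF3 (1) read 9.05, 9.23 and 8.94 in LCO leaves, against 9.76, 9.70 and 9.56 in water leaves. The highest LCO leaf lay 0.34 under the lowest water leaf. The log2 difference was -0.60 (SE 0.12, limma adjusted p = 0.0464), with means of 9.07 ± 0.15 with LCO and 9.68 ± 0.10 with water (SD, n = 3 each). ERF3 (3) read 7.80, 7.84 and 7.56 with LCO, against 8.54, 8.51 and 8.37 with water. Here the gap between the groups was 0.53, and the difference was -0.74 (SE 0.12, limma adjusted p = 0.0281).

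ERF3 (2) had a smaller difference than those called. It read 9.16, 9.23 and 8.98 with LCO, against 9.30, 9.39 and 9.26 with water. The groups were 0.03 apart, and the difference of -0.20 was not called (95% interval -0.45 to 0.06, limma adjusted p = 0.290), and it was -0.12 without LCO 3. ERF3 (4) was not tested because its mean lay under the background level. It read 2.71, 3.09 and 2.90 with LCO, against 3.37, 3.38 and 3.11 with water, so that only water 1 and water 2 passed the level of 3.31, and no direction is read from it. The change of ERF3 (1) minus that of ERF3 (2) was -0.41, and the change of ERF3 (3) minus that of ERF3 (2) was -0.55. Both comparisons had an exact permutation p = 0.1 (two-sided), the smallest possible here, and an adjusted p of 0.133. The identifiers of ERF3 (2) and ERF3 (3) carry the mark by which Affymetrix denotes probes shared by several transcripts, so both may also read close copies. The same mark and limit hold for the probe sets of DREB1 and ERF5 and for LOC100795557 (1).

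Both called falls of ERF3 rest on most of the arrays together. Either call held in 1 of 6 fits with an array left out, that without water 3 (adjusted p = 0.0406 for ERF3 (1) and adjusted p = 0.0298 for ERF3 (3)). In the other 5 such fits the adjusted p ran from 0.0718 to 0.195 for ERF3 (1) and from 0.0573 to 0.140 for ERF3 (3). With water 1 and 2 averaged they were 0.185 and 0.131, and with 1 mean for the gene the adjusted p was 0.0604. With an array left out the differences lay from -0.68 to -0.53 for ERF3 (1) and from -0.80 to -0.66 for ERF3 (3), and the 1 mean for the gene differed by -0.51. In the same leaves a control for RNA quality moved with the groups. For the P450 control gene, the 3′ probe set minus the 5′ one gave 2.13, 1.74 and 2.92 in LCO leaves 1 to 3, against 1.01, 0.97 and 0.95 in water leaves. LCO 3, with the largest of these values, also had the lowest ERF3 values in the 3 tested probe sets. The other controls with a 5′ probe set above background moved by 0.21 (GlutTrans) and -0.17 (an actin). The part of RNA quality in this result, or in that of DREB1-like, was not tested.

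**Figure D3:**
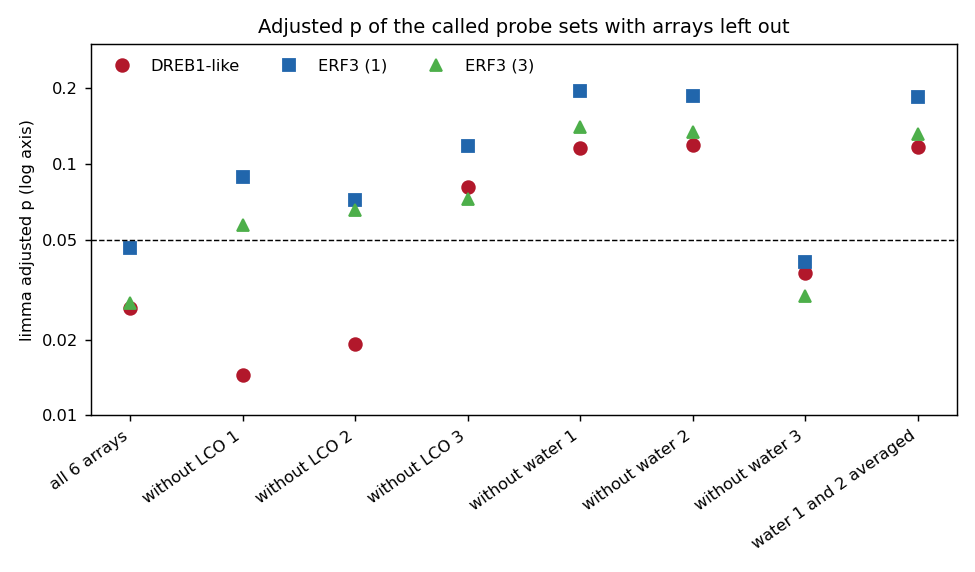
Limma adjusted p (log axis) of the 3 called probe sets with all 6 arrays, with each array left out in turn, and with water 1 and water 2 averaged; the dashed line marks 0.05. All 3 lie under the line with all arrays and without water 3, and above it without LCO 3, without water 1, without water 2 and with those water arrays averaged.

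No probe set of the other ERF genes was called. The groups did not overlap in any of them, as in 31.5% of all tested probe sets. The gaps were small, from 0.007 (AP2-9) to 0.09 (ERF6), with 0.01 and 0.06 for LOC100795557 (1) and (2). ERF5 read 4.12, 4.05 and 4.00 with LCO, against 4.99, 4.18 and 5.63 with water. The LCO leaves agreed within 0.12, while the water leaves spread over 1.45, and water 2 lay only 0.06 above the highest LCO leaf. The difference was -0.88 (95% interval -1.69 to -0.07, limma adjusted p = 0.171). Leaving out single arrays gave differences from -1.25 (without water 2) to -0.53 (without water 3).

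LOC100795557, which carries ERF5 as a synonym and is a separate gene from the one just described, also had lower values in both probe sets. LOC100795557 (1) read 7.18, 6.97 and 6.87 with LCO, against 7.31, 7.35 and 7.19 with water. LOC100795557 (2) read 4.79, 4.80 and 4.50 with LCO, against 5.21, 5.08 and 4.86 with water. In both, LCO 3 was the dimmest LCO leaf and water 3 the dimmest water leaf. The differences were -0.28 (95% interval -0.55 to 0.002, limma adjusted p = 0.196) and -0.35 (95% interval -0.69 to -0.02, limma adjusted p = 0.176). Their changes differed by 0.08 (exact permutation p = 0.5, two-sided, and adjusted p = 0.5).

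ERF6 and AP2-9 were the ERF group's members with higher values in LCO leaves. ERF6 read 7.34, 7.72 and 7.96 with LCO, against 7.25, 7.04 and 5.89 with water. LCO 1 lay 0.09 above water 1, and water 3 lay 1.25 under the mean of the other water leaves. The difference was 0.95 (95% interval 0.06 to 1.83, limma adjusted p = 0.172), or 0.53 without water 3 (adjusted p = 0.150). A probe set with the same cluster number as that of ERF6 has no gene in the table used and went the other way, at 8.45, 8.71 and 8.74 with LCO, against 8.89, 8.82 and 9.23 with water (difference -0.35, limma adjusted p = 0.203). AP2-9 read 7.87, 7.24 and 7.49 with LCO, against 7.11, 7.24 and 6.79 with water. LCO 2 and water 2 were 0.007 apart, and the difference was 0.49 (95% interval 0.02 to 0.96, limma adjusted p = 0.178). It was 0.33 without LCO 1 and 0.21 with arrays weighted by limma's estimate of their quality.

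**Figure D4:**
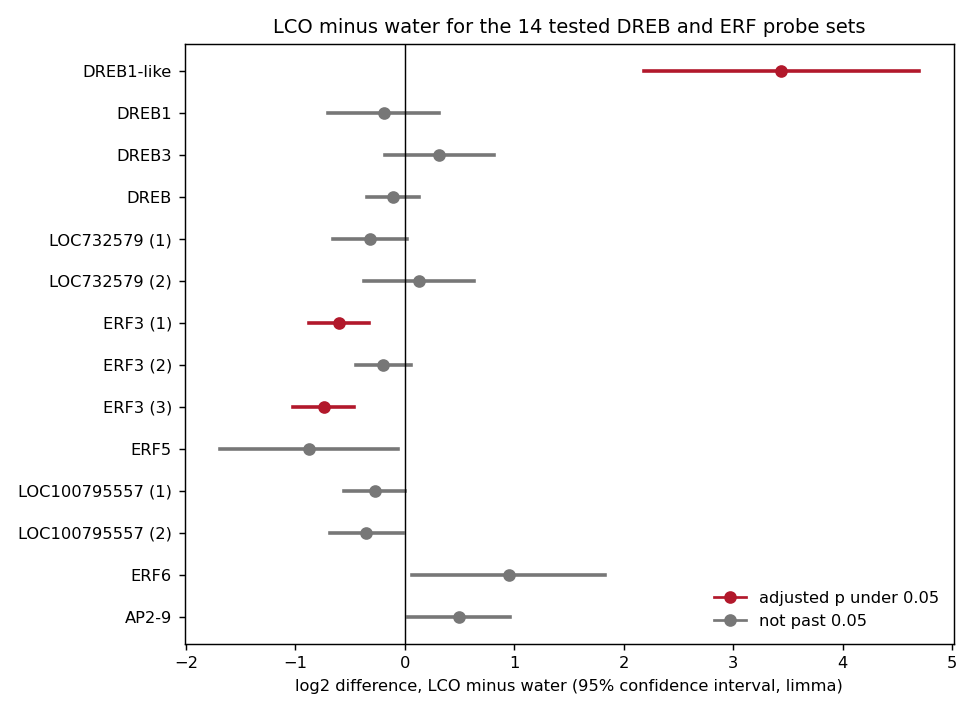
Log2 difference, LCO minus water (x axis), of the 14 tested DREB and ERF probe sets, with points for the estimates and bars for limma's 95% confidence intervals. DREB1-like at 3.44 lies beyond all others, the called ERF3 probe sets lie at -0.60 and -0.74, and the widest intervals outside DREB1-like are those of ERF6 and ERF5.

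Among themselves the probe sets shared a feature of the water leaves. Water 3 was the lowest of the 3 water leaves in 12 of the 14 tested probe sets and the highest in the other 2, DREB and ERF5. Over all tested probe sets water 3 was the lowest in 40.1%. In absolute terms the median distance of water 3 from the mean of water 1 and water 2 was 0.24 for the 14 probe sets, against a median of 0.084 between water 1 and water 2. The distances were largest for ERF6 (-1.25), ERF5 (1.05) and DREB3 (-0.69). Water 3 also stood apart over all tested probe sets, so the distance is not particular to the family. There its difference from water 1 and from water 2 had an SD of 0.459 and 0.450, against 0.198 between water 1 and water 2. The water values of DREB1-like, counted among the 12, all lay under background, so their order has no meaning.

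The genes whose pattern over the 6 arrays was most like that of DREB1-like, among 1465 probe sets of other genes with an informative name, were ITPK1 (Pearson r = 0.978), an inositol phosphate kinase, SS (r = 0.976), a sucrose synthase, and WRKY59 (r = 0.970), a WRKY transcription factor. Their differences between LCO and water were 0.93, 0.59 and 0.58, far smaller than that of DREB1-like. For ERF3 (3) they were the bZIP factor BZIP95 (r = 0.998), the isoflavone synthesis enzyme HIDH (r = 0.997) and CDC48 (r = 0.992), with differences of -0.88, -1.25 and -0.39. Of all these, WRKY59 (limma adjusted p = 0.101) and CDC48 (limma adjusted p = 0.0819) were not called, and the others were. Such values of r describe 6 points that fall in the 2 groups. Of the 1465 probe sets, 15 had an r over 0.95 with DREB1-like, and 56 with ERF3 (3).

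Related genes were read from 3 lists by symbol, and none of their probe sets was called by limma at 0.05. Over all tested probe sets 3.55% were called. Lists this short can hold no call at that share, so nothing is read from the lack of calls. Of other AP2/ERF-domain genes, 5 probe sets of EREBP1, DREB2A2, RAV and DREB5 were tested, with differences from -0.04 to 0.48, a median of 0.21, groups that overlapped in all 5, and none with an unadjusted p under 0.05. DREB2A2, of the drought-response DREB2 type, read 7.71, 7.32 and 6.76 with LCO, against 7.45, 7.39 and 6.31 with water. Its dimmest water leaf was water 3, as in 40.1% of all tested probe sets. Ethylene acts upstream of many ERF genes, and 4 probe sets of 3 genes of its synthesis and signalling were tested, of which 3 had an unadjusted p under 0.05, against 25.8% of all tested. The ethylene receptors ETR2 and EIN4 had lower values in every LCO leaf, with differences of -0.51 (limma adjusted p = 0.113) and -0.37 (limma adjusted p = 0.0847). ACS1 bears the symbol of the ACC synthases that make ethylene's precursor. Its tested probe sets had estimates of 1.18 (limma adjusted p = 0.0868) and 0.85 (limma adjusted p = 0.247). Values in the water leaves were near background, at 3.63, 3.38 and 2.97 in the first of these probe sets. The identifiers of both carry marks of probes that may also read other transcripts. A further ACS1 probe set without such a mark was not tested, its mean lying under the background level.

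The list of dehydration and cold response holds dehydrins, late embryogenesis and seed maturation proteins and stress-inducible genes, which include known targets of DREB factors. It has 45 probe sets on the array, and 23 of 16 genes were tested. The median difference was 0.05, 13 estimates were higher and 10 lower with LCO, and 5 had an unadjusted p under 0.05. In 8 of the 23 the groups did not overlap, 6 higher and 2 lower. Over all tested probe sets 31.5% did not overlap and 25.8% had an unadjusted p under 0.05, so both counts are near the background. SCOF-1, a cold-inducible zinc-finger factor of soybean held 3 of those 6. It was singled out after its values were seen, as were COR1 and COR2 below. Its probe set with the largest difference read 8.81, 8.89 and 8.69 with LCO, against 7.79, 8.17 and 6.37 with water, a difference of 1.35 (limma adjusted p = 0.127). COR1 held both of the lower ones, and its 3 probe sets had differences of -0.24, -0.16 and -0.37 (limma adjusted p = 0.189, 0.414 and 0.112). COR2 had the lowest p of the list, with a difference of 0.62 (limma adjusted p = 0.0871). The SCOF-1 values in water 3 were the lowest of the 6 leaves, and water 3 stood apart over all tested probe sets.

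**Figure D5:**
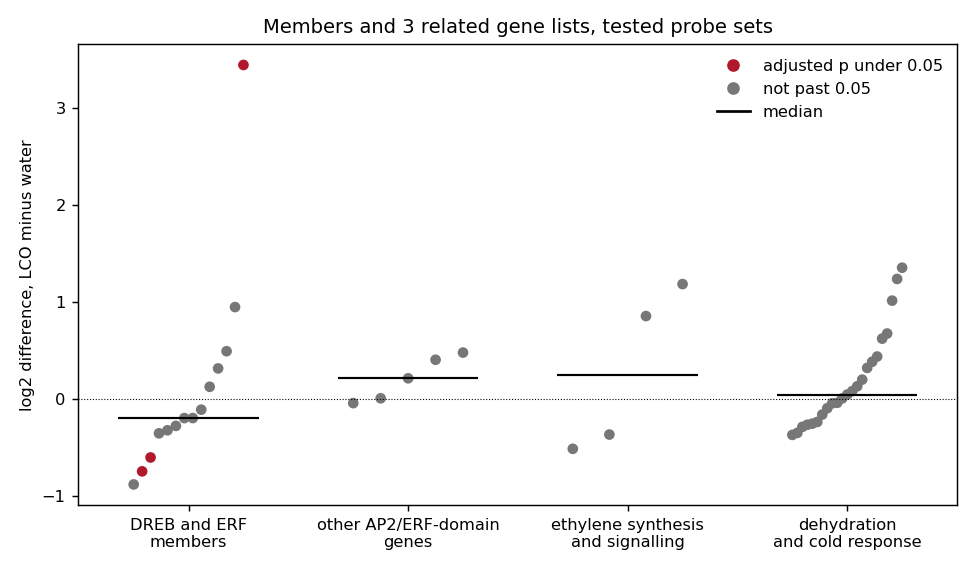
Log2 differences, LCO minus water (y axis), of the tested probe sets of the DREB and ERF genes and of 3 related gene lists, each point a probe set and each line a list's median. The called probe sets are all in the first column, whose genes were chosen with earlier results of these data known. The medians are -0.20, 0.21, 0.24 and 0.05 from left to right.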

How the data were processed

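Leaf RNA was hybridised to 6 Affymetrix soybean arrays. The deposited values are log2 values, and the submitters' processing notes name RMA as the authors' method; its version is not given in the sources used here, and the log2 scale was read from values of 1.45 to 14.6. RMA corrects background, brings arrays to 1 distribution and summarises probes. Groups came from the titles. Gene names came from the platform annotation and RefSeq (Glycine_max_v4.0). In that annotation 8677 soybean probe sets have a single gene and 370 several, while 28546 are unnamed here. No sequence was used here.

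The limma package, version 3.58.1 under R 4.3.3, gave the differences (lmFit, then eBayes, with no term besides group). P-values were adjusted by Benjamini-Hochberg over 29286 probe sets. The fit was tested on simulated data. Members, lists and tests were chosen with earlier results of these data known. Named were all members, up to 4 called genes a list, and the 3 most alike genes for DREB1-like and ERF3; others were chosen after their values were seen. Symbols of other families were removed by name (PTI1, SAMDC, ACSL2, PR-10, RAB, PMM, CP3, PARP3 and TENA_E entries). Figures were drawn with matplotlib 3.10.9. The number of arrays limits the precision.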

Additional observations from a re-analysis of the deposited data

How the results depend on the processing

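The 14 tested DREB and ERF probe sets gave 238 values under 17 alternatives. Of these, 214 kept direction and call, 18 lost the call, 3 gained it and 3 changed sign. The cause was not tested. All losses fell on the 3 called probe sets, with 4 of 17 values for DREB1-like and 7 of 17 each for ERF3 (1) and ERF3 (3). Most values that kept their call status were of probe sets never called. The sign changes were all counted for LOC732579 (2), which was not called. It was -0.0033 with array weights and -0.071 without water 3, and with each array left out it lay between -0.071 and 0.27. The other sign change, to -0.098 with 1 mean per gene, is a value of the mean over both LOC732579 probe sets. Under that alternative a gene's value is counted for each of its tested probe sets. Among the DREB and ERF probe sets 1 was called higher and 2 lower; this became 0 and 0 with water 1 and 2 averaged, 1 and 5 with array weights, and 1 and 0 with 1 mean per gene, where the tested units are fewer. Leaving out single arrays gave 0 to 1 higher and 0 to 2 lower. Over all tested probe sets 490 were called higher and 550 lower. The counts were 5017 and 4527 with array weights, 1412 and 1618 at a threshold of 0.10, and 99 and 104 with water 1 and 2 averaged. With an array left out they ran from 93 to 1166 higher and from 97 to 1041 lower.

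With the replicate number as a block the counts over all tested probe sets were 1515 higher and 1495 lower, and those of the family stayed at 1 and 2. Deviations from the group means of same-numbered arrays correlated at 0.452, -0.036 and 0.527 for numbers 1 to 3. LCO 1 and LCO 3 correlated best with the water array of their own number, and LCO 2 with water 3. LCO 1 correlated nearly as well with water 2 (0.448). The labels give only a number, and whether same-numbered arrays share more than that was not tested.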
